A study of Mus musculus with 3 samples.

Results

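The erythroid lineage genes described here are genes of globin, of blood group antigens and their membrane complexes, of the red cell membrane skeleton, and of red cell regulators and enzymes. Haem synthesis was not part of the list. The list had 34 symbols, and 30 of them matched a probe set in the platform annotation, out of 23185 named genes. Hbb-bt, Hba-a1, Ahsp and Epb41 did not match by symbol and were not analysed here. The arrays hold RNA of long-term haematopoietic stem cells (LT-HSCs), a rare marrow population at the top of blood formation. The 3 groups were LT-HSCs of mice given total body irradiation (TBI) of 8 Gy as FLASH, of mice given 8 Gy TBI at CDR, and of non-irradiated mice. All were female C57Bl/6 mice of 8 to 10 weeks of age with no further treatment named in the labels, and the cells were taken 15 days after TBI, 10000 for each sample. FLASH irradiation gives the whole dose at an ultra-high rate. CDR is not spelled out in the labels and is taken as conventional dose rate. Neither the sort gate nor the number of mice per sample is given in the sources used here.

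Each group had 1 array, so no difference below has a replicate check or a p-value, and "higher" and "lower" describe these arrays. Values are the deposited levels, taken as log2, and a difference is the first array's log2 level minus the second's. Detected means that the brighter of the compared arrays was above its own detection level. That level is the 95th percentile of 1364 chemosensory receptor genes (olfactory, vomeronasal, trace amine), assumed silent in marrow. It was 4.22 for FLASH, 4.16 for CDR and 4.15 for the non-irradiated array. Of the 23185 named genes 13054 were above the level on FLASH, 13200 on CDR and 13316 on the non-irradiated array. Of the 30 erythroid genes 29 were above it on all 3 arrays. Epb42, which encodes a protein that ties the anion exchanger to the membrane skeleton, was the exception, at 3.42 on FLASH, 3.23 on CDR and 3.23 on the non-irradiated array. All 13 measured LT-HSC markers were above the detection level on each array. Of 7 measured T cell genes 3 were above it on FLASH, 2 on CDR and 3 on the non-irradiated array. The T cell receptor complex genes Cd3d, Cd3e and Cd3g were under it on each array, while Thy1 and Cd8a were above it on each. On the non-irradiated array, 12 of 12 measured macrophage genes, 11 of 11 megakaryocyte genes and 10 of 11 granulocyte genes were above it. So were 6 of 10 mast cell and basophil genes, 6 of 7 progenitor genes and 4 of 6 B cell genes there. The purity of the cells was not tested. Because a bulk array averages over the cells, fewer cells of a type and less RNA per cell cannot be told apart.

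Red cells arise from stem cells through progenitors shared with megakaryocytes. The transcription factor GATA1, with its partner FOG1 (the product of Zfpm1), and KLF1 switch on the red cell programme, and erythropoietin acts through its receptor to keep the committed progenitors alive. Transferrin receptor, Rh complex proteins and early membrane skeleton proteins come on while the cells still divide, and haemoglobin accumulates as they mature.

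The start regions of several erythroid genes are shown first, as sequence background. Whether the short words marked in them bear on the differences below was not tested. Each line gives the 250 bases before a RefSeq transcription start, 5′ to 3′ along the gene (RefSeq, build GRCm38.p6). Where a gene had several starts, the first listed was used. For Rhag, Ermap and Trim10 this start lies inside the RefSeq gene span, so part of the window overlaps the gene. Capitals mark 3 kinds of short words found by search on both strands. A GATA word was AGATAA, with T also allowed as its first letter and G as its last. CACCC words, the kind KLF1 can bind, were spelled CCACACCC or else CCACGCCC, or as CCCCACCC or else CCCCGCCC. The third kind was CCAAT. The first 5 genes were higher on both irradiated arrays, and Hemgn and Trim10 were near their non-irradiated level on both.
Hbb-bs, chr7:103827929-103828178, minus strand: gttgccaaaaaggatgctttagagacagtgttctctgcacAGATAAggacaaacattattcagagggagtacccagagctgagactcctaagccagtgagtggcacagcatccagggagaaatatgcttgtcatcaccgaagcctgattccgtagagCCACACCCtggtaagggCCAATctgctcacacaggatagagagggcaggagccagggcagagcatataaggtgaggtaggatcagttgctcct
Klf1, chr8:84901732-84901981, plus strand: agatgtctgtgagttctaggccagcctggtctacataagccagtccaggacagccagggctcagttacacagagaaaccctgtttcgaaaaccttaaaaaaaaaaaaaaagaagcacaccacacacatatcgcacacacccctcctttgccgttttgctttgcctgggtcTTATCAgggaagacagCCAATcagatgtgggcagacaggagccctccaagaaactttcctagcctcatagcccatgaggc
Rhag, chr17:40810899-40811148, plus strand: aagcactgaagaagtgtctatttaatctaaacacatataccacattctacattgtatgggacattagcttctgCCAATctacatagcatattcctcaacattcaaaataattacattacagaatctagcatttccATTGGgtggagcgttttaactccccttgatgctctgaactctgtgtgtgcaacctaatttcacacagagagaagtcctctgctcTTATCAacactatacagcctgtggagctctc
Ermap, chr4:119189996-119190245, minus strand: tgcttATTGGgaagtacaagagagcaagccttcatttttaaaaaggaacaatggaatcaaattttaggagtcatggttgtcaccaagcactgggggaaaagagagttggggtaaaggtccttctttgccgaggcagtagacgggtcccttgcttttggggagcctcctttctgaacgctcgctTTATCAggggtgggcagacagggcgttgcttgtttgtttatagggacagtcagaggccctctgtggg
Rhd, chr4:134864286-134864535, plus strand: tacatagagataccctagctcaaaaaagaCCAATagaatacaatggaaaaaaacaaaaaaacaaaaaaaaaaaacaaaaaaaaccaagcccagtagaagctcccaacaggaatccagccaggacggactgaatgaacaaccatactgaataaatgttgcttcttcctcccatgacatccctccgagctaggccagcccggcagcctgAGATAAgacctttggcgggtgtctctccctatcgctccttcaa
Hemgn, chr4:46404184-46404433, minus strand: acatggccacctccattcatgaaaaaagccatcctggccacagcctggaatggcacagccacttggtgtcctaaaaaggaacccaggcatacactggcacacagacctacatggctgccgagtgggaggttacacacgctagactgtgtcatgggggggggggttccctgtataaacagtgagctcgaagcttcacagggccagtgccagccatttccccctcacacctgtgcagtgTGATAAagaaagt
Trim10, chr17:36869324-36869573, plus strand: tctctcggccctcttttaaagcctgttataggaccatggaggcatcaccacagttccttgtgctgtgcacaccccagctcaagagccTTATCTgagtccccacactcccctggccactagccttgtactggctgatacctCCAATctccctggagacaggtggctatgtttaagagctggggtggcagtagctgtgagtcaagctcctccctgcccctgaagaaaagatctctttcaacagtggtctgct

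The Hbb-bs window held a CACCC word at positions -93 to -86 from the start, a CCAAT word at -76 to -72 and a GATA word at -210 to -205. A CACCC box that KLF1 binds and a CCAAT box nearer the start are textbook features of an adult beta globin promoter. In the Klf1 window a GATA word on the reverse strand, read as TTATCA, lay at -80 to -75, and the CCAAT word at -64 to -60. Rhag, Ermap and Rhd each had a GATA word near the start used, at -31 to -26, -67 to -62 and -43 to -38. The word of Rhag lies inside the RefSeq gene span. GATA words also stood in the windows of Trim10 (-163 to -158) and Hemgn (-13 to -8). Every window shown thus held a GATA word, though some matched erythroid genes had none, as the shares below give. Promoters were found for 23 of the 30 measured genes, some with several starts. A GATA word stood before at least 1 start of 8 of the 10 matched genes past 2-fold on the FLASH side (80.0%), and of 6 of the 13 other matched erythroid genes (46.2%). Among all 27025 genes with a listed promoter, the share was 29.7%. CACCC words had shares of 40.0%, 61.5% and 30.2% in the same order of sets, and CCAAT words 80.0%, 30.8% and 37.5%. Words did not overlap in the windows shown, a gene with more starts has more chances of a match, and a match is no evidence of binding.

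Many erythroid genes were higher on both irradiated arrays than on the non-irradiated array. The largest differences were those of Cldn13, Pklr and Ermap on FLASH and of Cldn13, Rhag and Tspo2 on CDR. On the FLASH array 12 of 29 detected erythroid genes (41.4%) exceeded the non-irradiated array by 2-fold or more and 0 lay below it by as much. Over all 13288 detected named genes the shares were 1.17% and 1.75%. On the CDR array 11 of 29 (37.9%) exceeded it by 2-fold or more and 0 lay below by as much, against 0.766% and 2.36% of 13448 detected named genes. At 1.5-fold, 17 of 29 were higher on FLASH (3.59% of all detected genes) and 0 lower (5.3%), and 16 of 29 were higher on CDR (3.2%) and 0 lower (5.38%). The median difference of the erythroid genes was 0.64 on each irradiated array, the value of Kel in both comparisons, and the median of all detected genes was 0.00. Counting any amount, 22 of 29 genes were higher on FLASH (33.8% of all detected genes) and 4 lower (33.0%), and on CDR 21 were higher (34.7%) and 4 lower (30.4%). Both comparisons use the same non-irradiated array, so they are not independent of each other. The list was drawn up with earlier results of these arrays known, so these shares describe its genes and are not independent evidence of a direction.

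**Figure D1:**
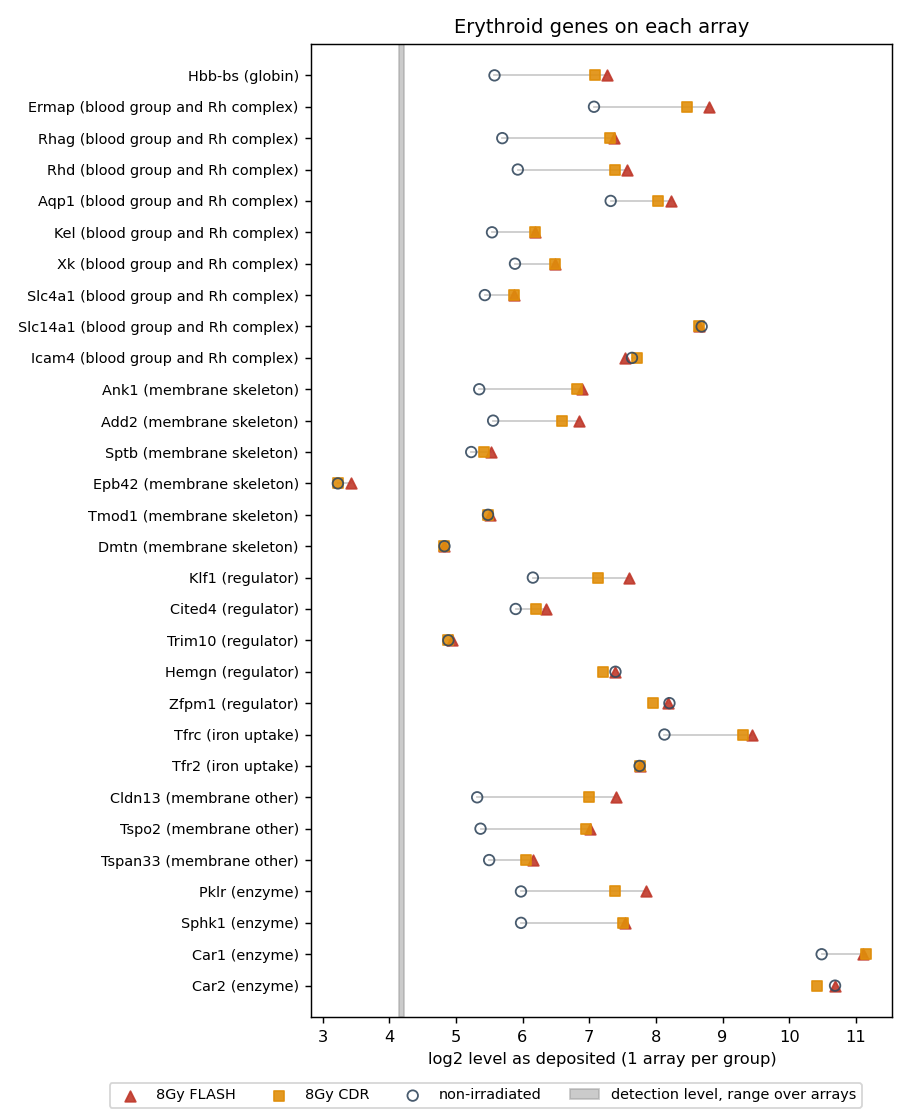
Log2 level of the 30 measured erythroid genes (rows, grouped by role) on the FLASH (triangles), CDR (squares) and non-irradiated (open circles) arrays, 1 array per group, with the detection level of 4.15 to 4.22 as a grey band. The irradiated arrays lie together to the right of the open circle for genes such as Hbb-bs, Rhag and Cldn13, while Tfr2, Dmtn and Trim10 have all 3 symbols within 0.06 of one another, and Epb42 lies left of the band.

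**Figure D2:**
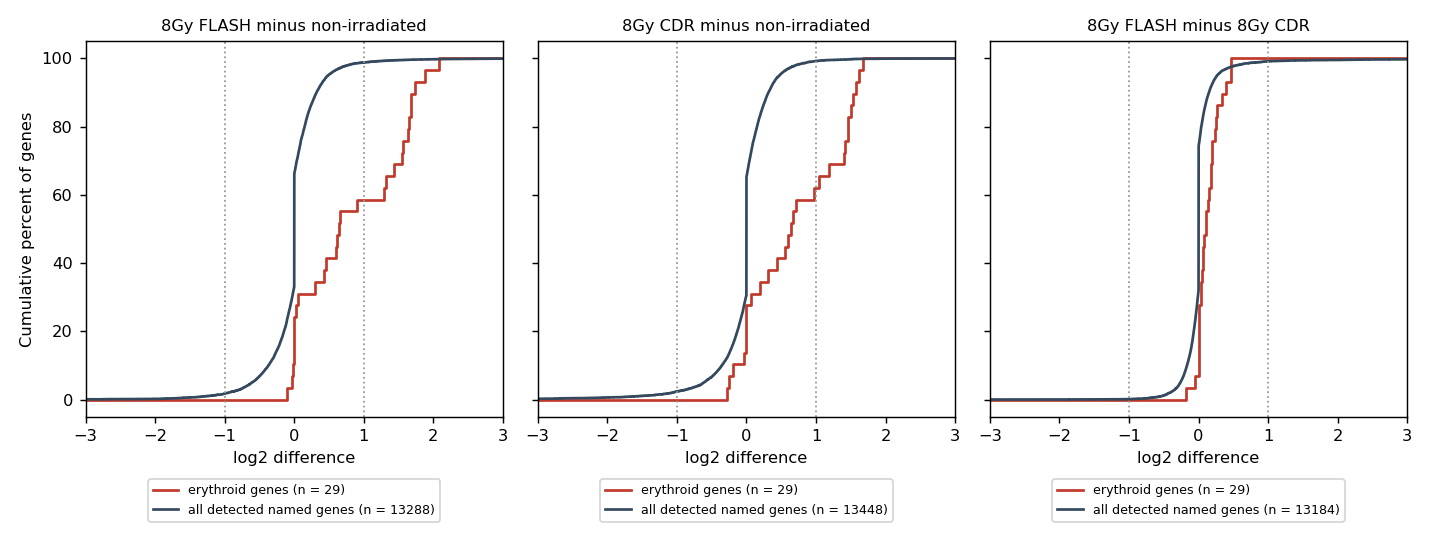
Cumulative percent of genes (vertical axis) up to each log2 difference (horizontal axis) for the 29 detected erythroid genes and all detected named genes, in 3 comparisons, with dotted lines at 2-fold. The erythroid line lies well to the right of all genes in both comparisons with the non-irradiated array (median 0.64 in each) and slightly to the right between FLASH and CDR (median 0.11).

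Of the 3 globin genes in the list only Hbb-bs, an adult beta globin gene of the C57BL/6 haplotype, was measured. It read 7.26 on FLASH, 7.09 on CDR and 5.58 on the non-irradiated array. The difference from the non-irradiated array was 1.68 (3.21-fold) on FLASH and 1.51 (2.85-fold) on CDR, so the irradiated arrays stood together above the non-irradiated one. Adult beta globin genes are near-identical copies, and this probe set may also read Hbb-bt.

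The Rh complex carries the Rh antigens and conducts ammonia across the red cell membrane. Rhag, its core channel protein, read 7.37 on FLASH, 7.32 on CDR and 5.70 on the non-irradiated array, and the differences from the non-irradiated array were 1.67 and 1.62. Rhd, the Rh antigen protein, read 7.56 on FLASH, 7.39 on CDR and 5.93 on the non-irradiated array, differences of 1.64 and 1.46. The partners of the complex thus stood about 3-fold higher on the irradiated arrays, at 3.19-fold and 3.07-fold for Rhag and 3.11-fold and 2.76-fold for Rhd. Icam4, the Landsteiner-Wiener adhesion protein that travels with the Rh complex, did not follow them. It read 7.53 on FLASH, 7.71 on CDR and 7.64 on the non-irradiated array, differences of -0.11 and 0.07.

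Among the other blood group genes, Ermap, which carries the Scianna antigens, was the highest in difference. Its levels were 8.80 on FLASH, 8.47 on CDR and 7.07 on the non-irradiated array, 3.32-fold and 2.64-fold above the non-irradiated array. Kel, the Kell endopeptidase, and Xk, the membrane protein linked to it, had moderate differences of like size. Kel read 6.19 on FLASH, 6.19 on CDR and 5.54 on the non-irradiated array, a difference of 0.64 on each irradiated array. Xk read 6.49 on FLASH, 6.48 on CDR and 5.89 on the non-irradiated array, a difference of 0.60 on each. The transporters among the blood group proteins differed from one another. Aqp1, the water channel with the Colton antigens, read 8.23 on FLASH, 8.04 on CDR and 7.32 on the non-irradiated array (1.87-fold and 1.64-fold). Slc4a1, the anion exchanger that anchors the membrane skeleton, read 5.87 on FLASH, 5.87 on CDR and 5.43 on the non-irradiated array, 1.35-fold in each comparison. Slc14a1, the urea transporter with the Kidd antigens, read 8.65 on FLASH, 8.65 on CDR and 8.69 on the non-irradiated array, a difference of -0.04. In all, 3 of the 9 blood group and Rh genes were at least 2-fold higher on each irradiated array, Rhag, Rhd and Ermap.

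The membrane skeleton is the spectrin and actin mesh under the red cell membrane, and its genes split. Ank1, the ankyrin that ties spectrin to the anion exchanger, read 6.89 on FLASH, 6.81 on CDR and 5.35 on the non-irradiated array (2.92-fold and 2.76-fold). Add2, the beta adducin that caps the actin filaments and links them to spectrin, read 6.85 on FLASH, 6.60 on CDR and 5.56 on the non-irradiated array (2.45-fold and 2.06-fold). These were the genes of this group that passed 2-fold. Sptb, beta spectrin, read 5.53 on FLASH, 5.42 on CDR and 5.23 on the non-irradiated array, differences of 0.30 and 0.19. Dmtn, the actin bundling protein dematin, read 4.83 on each of the 3 arrays. Tmod1, tropomodulin, which caps the other end of the actin filaments, read 5.51 on FLASH, 5.48 on CDR and 5.48 on the non-irradiated array. With Epb42 under the detection level, 2 of the 5 detected skeleton genes were at least 2-fold higher on each irradiated array.

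The regulators differed among themselves. Klf1, the erythroid transcription factor that activates the beta globin gene, read 7.59 on FLASH, 7.13 on CDR and 6.15 on the non-irradiated array. Its difference from the non-irradiated array was 1.44 (2.71-fold) on FLASH and 0.98 (1.97-fold) on CDR, so that it was just under the 2-fold mark on CDR. Cited4, a coactivator-binding protein, read 6.35 on FLASH, 6.20 on CDR and 5.90 on the non-irradiated array, differences of 0.46 and 0.31. The remaining regulators were close to the non-irradiated level, except Zfpm1 on CDR. Its -0.25 there was larger in size than 0.21, the SD of the same difference over the receptor genes taken as unexpressed. Zfpm1, the GATA1 partner FOG1, read 8.18 on FLASH, 7.95 on CDR and 8.20 on the non-irradiated array. Hemgn, the nuclear protein hemogen, read 7.39 on FLASH, 7.20 on CDR and 7.39 on the non-irradiated array. The differences of Zfpm1 were -0.02 and -0.25 and those of Hemgn 0.00 and -0.19. Trim10, a RING finger protein of terminal red cell maturation, had differences of 0.06 and 0.00.

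Iron enters erythroid cells through the transferrin receptor, and the receptor genes also split. Tfrc, the main uptake receptor, which dividing cells of all kinds also use, read 9.44 on FLASH, 9.31 on CDR and 8.13 on the non-irradiated array (2.49-fold and 2.27-fold). Tfr2, an iron sensor that associates with the erythropoietin receptor, read 7.76 on each of the 3 arrays.

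Among the other membrane proteins, Cldn13, a claudin of mouse erythroid cells, had the largest difference of all 30 genes in both comparisons with the non-irradiated array. It read 7.40 on FLASH, 7.0 on CDR and 5.32 on the non-irradiated array, differences of 2.08 (4.23-fold) and 1.68 (3.21-fold). The 5.32 lies just under the 99th percentile of the receptor genes on that array, 5.33. Tspo2, an erythroid translocator protein that binds cholesterol, read 7.02 on FLASH, 6.95 on CDR and 5.37 on the non-irradiated array (3.13-fold and 3.0-fold). Tspan33, a tetraspanin of erythroid progenitors, read 6.16 on FLASH, 6.06 on CDR and 5.50 on the non-irradiated array (1.59-fold and 1.47-fold). All 3 of these genes read higher on both irradiated arrays.

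The enzymes split as well. Pklr, the pyruvate kinase of red cells and liver, read 7.85 on FLASH, 7.39 on CDR and 5.98 on the non-irradiated array (3.68-fold and 2.67-fold). Sphk1, the sphingosine kinase that supplies sphingosine phosphate in red cells and other cells, read 7.54 on FLASH, 7.51 on CDR and 5.98 on the non-irradiated array (2.96-fold and 2.89-fold). Car1, a carbonic anhydrase of the red cell, read 11.11 on FLASH, 11.15 on CDR and 10.49 on the non-irradiated array (1.54-fold and 1.59-fold). Car2, the faster carbonic anhydrase, read 10.68 on FLASH, 10.41 on CDR and 10.69 on the non-irradiated array, differences of -0.01 and -0.28. The -0.28 of Car2 on CDR was the lowest difference of any erythroid gene on either irradiated array. Car1 was thus higher and Car2 lower on CDR than on the non-irradiated array.

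Between the irradiated arrays, the question was whether dose rate at the same dose went with a difference in erythroid genes. On the FLASH array 22 of 29 detected genes read higher than on CDR by any amount, 2 lower and 5 exactly equal, and the median difference was 0.11 (25.6% of all 13184 detected genes were higher and 31.9% lower). None of the 29 differed 2-fold in either direction, against 0.85% higher and 0.144% lower over all detected genes, and none differed 1.5-fold (1.85% higher and 0.781% lower). The largest differences were those of Klf1 and Pklr, 1.38-fold each (0.46), then Cldn13 at 0.40 and Ermap at 0.33. Lower on FLASH were Icam4, at -0.18, and Car1, at -0.05. For single genes, the SD of the same difference over the receptor genes taken as unexpressed was 0.18. Of the 30 measured genes 23 were higher and 2 lower in deposited values, 24 and 5 after quantile normalisation, and 27 and 3 after cyclic loess. Median centring, which takes the same small amount from every difference and so turns exact ties and the smallest differences negative, gave 20 and 10.

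**Figure D3:**
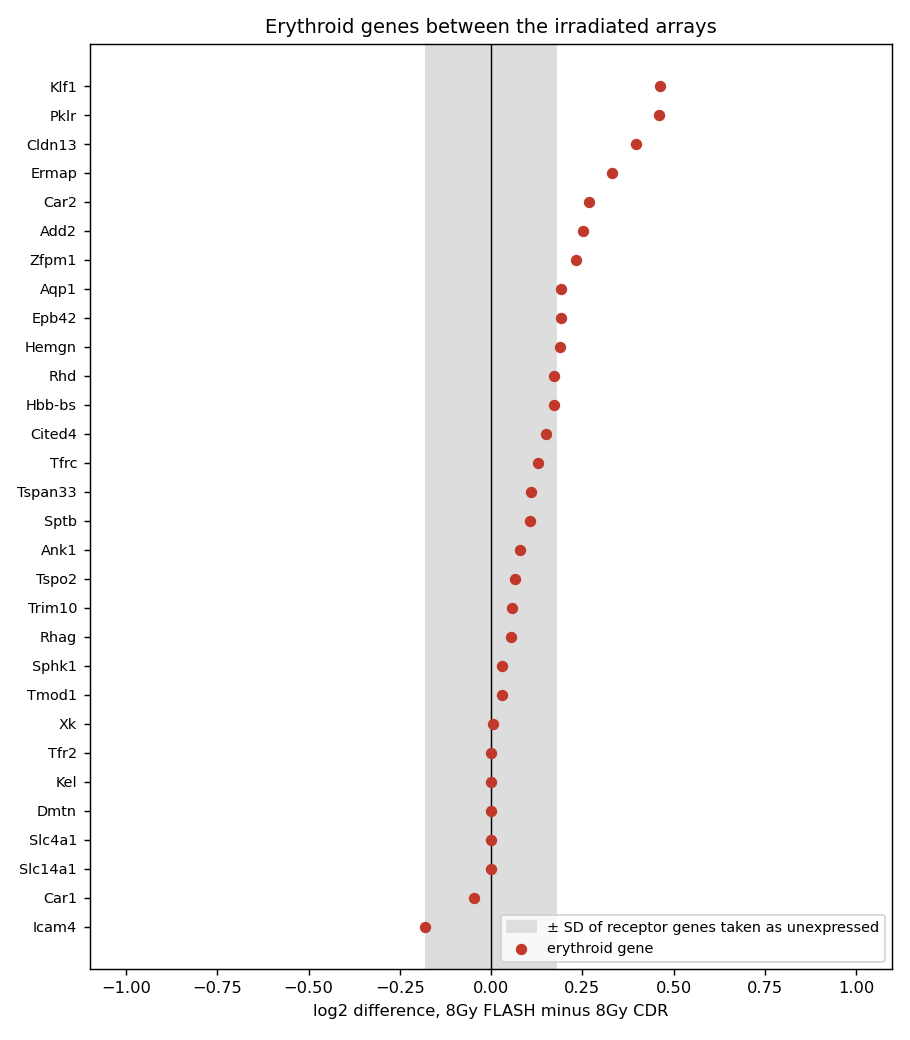
Log2 difference between the FLASH and CDR arrays (horizontal axis, 1 array per group) for each of the 30 measured erythroid genes (rows), with a grey band of ± 0.18, the SD of the receptor genes taken as unexpressed. Klf1 and Pklr lie farthest right at 0.46, Icam4 farthest left at -0.18, and most genes lie inside the band.

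Exact ties between arrays were common in the deposited values and bear on the genes that look unmoved. Of the 30 erythroid genes 2, Dmtn and Tfr2, held the same value on all 3 arrays, as did 39.8% of all named genes. Between the FLASH and CDR arrays 5 erythroid genes (16.7%) were tied, Kel, Slc14a1, Slc4a1, Dmtn and Tfr2, against 54.1% of all named genes. Tied between CDR and the non-irradiated array were 5 (16.7%), Epb42, Dmtn, Tmod1, Trim10 and Tfr2, against 48.01% of all named genes. On FLASH 3 were tied with the non-irradiated array (10.0%), Dmtn, Hemgn and Tfr2, against 47.35%. How the ties came about is not stated in the sources used here.

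Other genes of the red cell programme were set beside these genes. Of 22 upstream regulators and signalling genes, 0 were at least 2-fold higher or lower on either irradiated array, with medians of -0.02 on FLASH and -0.01 on CDR. Over all detected genes 1.17% were 2-fold higher and 1.75% lower on FLASH, and 0.766% and 2.36% on CDR, so 0 of 22 is near those shares. By any amount, 5 read higher and 12 lower on FLASH, and 4 higher and 11 lower on CDR. Gfi1 had the largest positive difference on CDR, 0.56, with 0.25 on FLASH. Epor, the erythropoietin receptor, read 6.96 on FLASH, 6.52 on CDR and 6.13 on the non-irradiated array (0.83 and 0.40). Gata1 read 8.75 on FLASH, 8.48 on CDR and 8.11 on the non-irradiated array (0.63 and 0.37). Lower than the non-irradiated array were Gata2, the GATA factor of stem and early progenitor cells that GATA1 replaces as red cells form, at -0.61 and -0.94, and Nfe2, at -0.53 and -0.54. Tal1, which works in a complex with GATA1, differed by -0.39 and -0.28, and Gfi1b, a repressor needed for red cells and platelets, by 0.07 and 0.00.

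Haem synthesis and its transporters pointed the same way as the erythroid genes by smaller amounts. Of 11 measured genes 8 read higher on FLASH and 9 on CDR, 1 read lower on each, and none passed 2-fold, with a median of 0.25 on each. Over all detected genes 33.8% read higher and 33.0% lower on FLASH, and 34.7% and 30.4% on CDR. At 2-fold the shares were 1.17% higher and 1.75% lower on FLASH, and 0.766% and 2.36% on CDR. Cpox, coproporphyrinogen oxidase, was at 0.88 on FLASH and 0.62 on CDR, and Alas1, the housekeeping first enzyme of the pathway, at 0.45 and 0.79. Alas2, its erythroid form, was close to the detection level, at 4.62 on FLASH, 4.46 on CDR and 4.2 on the non-irradiated array. Of 12 detected iron handling genes 9 read higher on FLASH and 8 on CDR, with medians of 0.17 and 0.06 and 0 past 2-fold. Steap3, the endosomal ferrireductase of erythroid cells, was at 0.68 on each irradiated array, and Glrx5, a mitochondrial iron-sulphur assembly protein, at 0.57 and 0.36.

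Among 28 detected further red cell genes, 14 were higher and 8 lower on FLASH and 14 higher and 7 lower on CDR, with medians of 0.00. The shares over all detected genes were 33.8% higher and 33.0% lower on FLASH, and 34.7% and 30.4% on CDR. The largest positive difference was that of Blvrb, biliverdin reductase B, at 0.81 on FLASH and 0.56 on CDR. Next came Ctse, the protease cathepsin E, on FLASH (0.71, and 0.46 on CDR) and Stom, the membrane protein stomatin, on CDR (0.54, and 0.44 on FLASH). Art4, which carries the Dombrock blood group antigens, was the single gene past 2-fold and was lower, with 6.16 on FLASH, 5.90 on CDR and 7.29 on the non-irradiated array. Its direction was thus opposite to that of Rhag, Rhd and Ermap. The embryonic and theta globin genes Hbb-y, Hbb-bh1, Hba-x and Hbq1a, named after their values were seen, were under the detection level on all 3 arrays, between 2.21 and 2.97. Hbq1b, the other theta globin gene, was above it on all 3, at 4.58 on FLASH, 4.71 on CDR and 4.58 on the non-irradiated array.

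**Figure D4:**
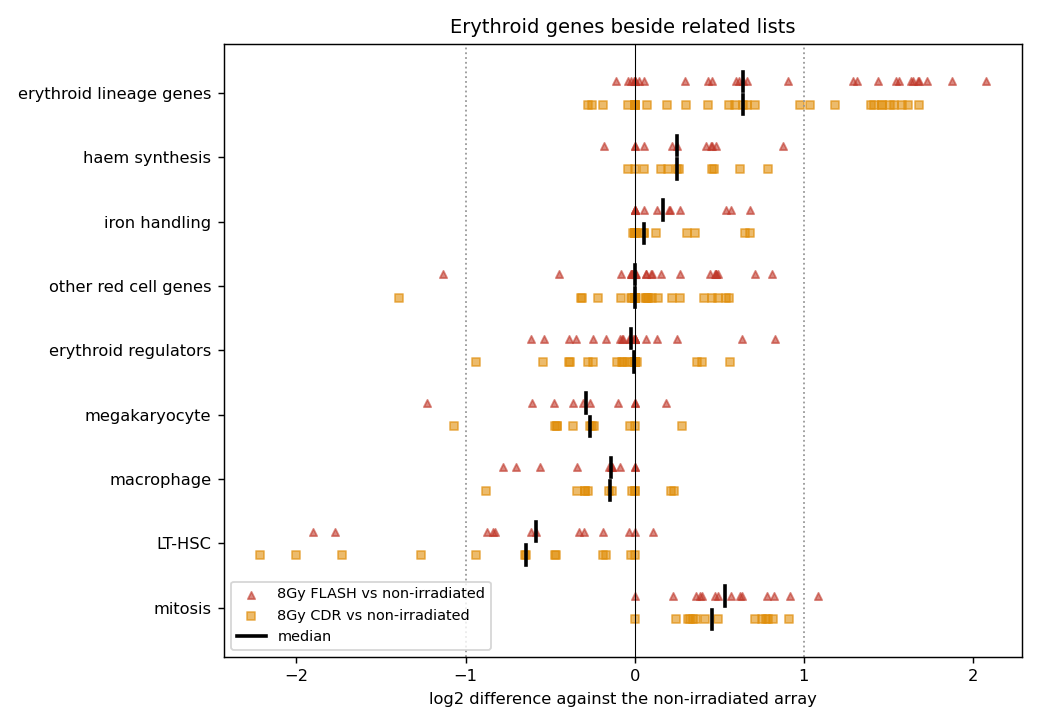
Log2 difference against the non-irradiated array (horizontal axis) of each detected gene in the erythroid list and 8 other lists (rows), for FLASH (triangles) and CDR (squares), with medians as black bars and dotted lines at 2-fold. The erythroid list has its median at 0.64 on both arrays, haem synthesis at 0.25 on both, LT-HSC markers lie to the left (-0.58 on FLASH and -0.64 on CDR) and mitosis genes to the right (0.53 and 0.46).

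Markers of other cells and states differed between the same arrays. For the counts that follow, 33.8% of all detected genes read higher by any amount on FLASH and 34.7% on CDR. At 2-fold, 1.17% were higher and 1.75% lower on FLASH, and 0.766% and 2.36% on CDR. The 13 measured LT-HSC markers had a median difference of -0.58 on FLASH and -0.64 on CDR, and the log2 of their summed linear level was 11.41 on FLASH, 11.32 on CDR and 12.31 on the non-irradiated array. Procr, the stem cell marker EPCR, was at -0.82 and -1.73, Kit at -0.87 and -0.47, and Slamf1 at 0.11 and -0.02. Of 14 mitosis genes 13 were higher on each irradiated array, with medians of 0.53 on FLASH and 0.46 on CDR and Mki67 at 0.36 on each. Megakaryocyte genes, of the lineage that shares a progenitor with red cells, had medians of -0.29 on FLASH (10 detected) and -0.26 on CDR (11 detected), with Pf4 at -0.31 and -0.46 and Itga2b at -0.48 and -0.47. Genes of macrophages, the cells at the centre of erythroblast islands, had medians of -0.14 on each, with 0 of 11 higher on FLASH and 2 of 12 higher on CDR. The log2 of the summed linear level of the 12 macrophage genes was 10.18 on FLASH, 10.29 on CDR and 10.53 on the non-irradiated array. Mast cell and basophil genes pointed both ways, with 2 of 9 detected genes at least 2-fold higher and 1 lower by as much on each irradiated array. The tryptase gene Tpsb2 read 6.81 on FLASH, 5.89 on CDR and 3.89 on the non-irradiated array, where it was under the detection level. Mcpt4, a mast cell chymase, read 5.12 on FLASH, 4.52 on CDR and 3.47 on the non-irradiated array, also under that level there, while the basophil protease Prss34 was at -1.38 and -2.71. The summed linear level of the 10 measured mast cell and basophil genes was 1755 on FLASH, 1642 on CDR and 2049.6 on the non-irradiated array. Granulocyte genes also pointed both ways, with 1 of 10 detected genes at least 2-fold higher and 3 lower by as much on each. Lcn2, the granule protein lipocalin, was at 1.42 on FLASH and 2.17 on CDR, and S100a9 at -1.31 and -2.25. The log2 of the summed linear level of the 11 measured granulocyte genes was 14.06 on FLASH, 14.18 on CDR and 13.93 on the non-irradiated array. Medians of detected genes were -0.68 on FLASH and -0.47 on CDR for progenitor markers, -0.14 and -0.51 for B cell markers, and 0.14 and 0.11 for T cell markers. Few genes lie behind these medians, with 6 progenitor markers and 4 B cell markers in each comparison. For T cell markers they were 4 on FLASH and 3 on CDR, so the gene sets were not the same. The log2 sum of the 30 erythroid genes was 13.09 on FLASH, 12.97 on CDR and 12.52 on the non-irradiated array by the same measure, to which Car1 and Car2 add most. The part of cell composition in the erythroid differences was not tested.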

How the data were processed

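LT-HSC RNA from 3 groups, 1 array each, was labelled by the Affymetrix whole transcript assay, per the labels' protocols. The deposited table holds the authors' log2 level of each probe set. The log2 scale was read from the range of values. Partek, without a version, is the software in the submitters' processing notes. How background, probe summary and normalisation were handled is not given in the sources used here. Of 25206 probe sets 23185 carried 1 symbol in the platform annotation, and 2021 were unnamed here.

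Values were used as deposited. Differences were counted at 2-fold among detected genes. With 1 array per group there is no test, and precision is limited by the number of arrays. The members and lists were chosen with earlier results of these data known. All members may be named. From related red cell lists, up to 4 genes with the largest positive and 2 with the largest negative differences per comparison are named, and Gata1, Epor, Alas2, Tal1 and Gfi1b. From marker lists of other cells, up to 2 genes per direction are named, and Procr, Slamf1, Kit, Pf4, Itga2b and Mki67.

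The alternatives tried were quantile normalisation, cyclic loess (limma 3.58.1, R 4.3.3), median centring, an offset of 32, raising dim values to the detection level, other filters and folds, list means, and leaving out Hbb-bs. Leaving out tied genes was added after seeing the data. The counting steps were tested on simulated data. Calculations used Python 3.11.15, numpy 2.4.6 and pandas 2.3.3, and plots matplotlib 3.10.9. Promoter sequences were from RefSeq.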

Additional observations from a re-analysis of the deposited data

How the results depend on the processing

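No paired analysis was possible because each group had 1 array. The counts of detected erythroid genes at least 2-fold higher were 9 to 12 on CDR (11 as reported) and 11 to 12 on FLASH (12 as reported) under the alternative normalisations, offset, filters and gene choice, and 0 in each of these for FLASH against CDR. With an offset of 32 added before the log, the median difference was 0.43 on FLASH and 0.41 on CDR against the non-irradiated array, as an offset shrinks the differences of dim genes. At a fold threshold of 3, 7 genes passed on FLASH and 2 on CDR, and at 1.5, 17 and 16. Klf1 passed 2-fold on CDR with median centring and with quantile normalisation. Median, mean and the normalisations kept the direction of the list in all 3 comparisons. Of the 30 genes taken singly, 13 on FLASH and 11 on CDR moved by more than the SD of the receptor genes with the offset, and 0 with the other normalisations. No gene past 2-fold turned direction. For FLASH against CDR, 2 of the 30 genes were lower in deposited values, 5 after quantile normalisation, 3 after cyclic loess and 10 with median centring, which makes exact ties negative by construction. Depth is replaced here by signal over background: Dmtn, Trim10 and Epb42 lay under the 99th percentile of the receptor genes on each array, and their lack of a difference is the least certain. Sptb lay under it on the CDR and non-irradiated arrays. On the non-irradiated array that level was 5.33, with Cldn13 (5.32) just under it and Ank1 (5.35) and Tspo2 (5.37) just above. The fold differences of these genes thus start from a dim reading.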

Other observations

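Genes next to the erythroid genes on the chromosome were taken by order of protein-coding genes in RefSeq. Beside 11 of the genes at least 2-fold higher on FLASH, 16 detected neighbours outside the list were measured, with a median difference of 0.00. Of these, 0 passed 2-fold upward and 1, Mettl27, downward, against 1.17% and 1.75% of all detected genes. Beside 10 such genes on CDR, 14 neighbours gave 0 and 1, against 0.766% and 2.36%, with a median of 0.00. Counts this small cannot be told apart from those shares. Neighbours are named after their values were seen. Mettl27, next to Cldn13, read 5.41 on FLASH, 5.93 on CDR and 7.03 on the non-irradiated array, differences of -1.63 and -1.1. Cldn13 and its neighbour thus stood in opposite directions from the non-irradiated array. Tnk2, next to Tfrc, read 5.96 on FLASH, 5.86 on CDR and 5.25 on the non-irradiated array, the largest positive difference among the neighbours, at 0.71 and 0.61. Dnase2a, next to Klf1, encodes the nuclease with which macrophages digest expelled red cell nuclei, and read 7.08 on FLASH, 7.44 on CDR and 7.45 on the non-irradiated array. Gcdh, on the other side of Klf1, read 7.02 on FLASH, 7.04 on CDR and 7.02 on the non-irradiated array.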
